A study of Bos taurus and Capra hircus with 9 samples.

Results

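The miRNAs described here are miR-423, miR-191 and miR-425, which are often used as references in miRNA quantification. All bovine entries of these names were taken, with or without an arm suffix, whatever their level. This gave 5 of the 296 listed entries, namely bta-miR-423-3p, bta-miR-423-5p, bta-miR-191, bta-miR-425-5p and bta-miR-425-3p, and all 5 passed the filter on low values. Small RNAs of milk-derived extracellular vesicles (EVs) were sequenced in 4 primiparous Alpine goats (17, 44, 79 and 127), sampled 26 ± 9 days postpartum, and in 5 Holstein Friesian cows (1, 2, 3, 20 and 62) of unstated parity, sampled 30 ± 7 days postpartum. There was 1 library per animal. Each species came from its own farm, goat milk received an extra acetic acid step, and goat reads were counted on the bovine reference. Species, farm, breed, handling and the use of another species' reference for goats therefore cannot be told apart.

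A reference miRNA is a small RNA against which the level of others is expressed, and it should therefore vary little between animals and between the groups compared. miR-423 is made from a hairpin whose 2 arms, -5p and -3p, can each be loaded into Argonaute as a mature miRNA. miR-191 and miR-425 come from neighbouring hairpins that are transcribed together in human cells, where this cluster responds to estrogen in breast cancer cells. In human blood miR-191, miR-423 and miR-425 are widely expressed and are among the miRNAs proposed as references. In the ARS-UCD2.0 bovine assembly of RefSeq, MIR423 lies within NSRP1, a gene of a splicing regulator, while MIR191 and MIR425 follow each other with no gene between them, next to DALRD3.

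The mature sequences are shown because the seed, bases 2 to 8 in capitals, largely decides which messengers a miRNA can pair with. The whole sequence bears on whether reads of related miRNAs could be mixed. They are written 5′ to 3′, as DNA letters, as in the deposited table.
bta-miR-423-3p: aAGCTCGGtctgaggcccctcagt
bta-miR-423-5p: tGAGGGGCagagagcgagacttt
bta-miR-191: cAACGGAAtcccaaaagcagctg
bta-miR-425-5p: aTGACACGatcactcccgttga
bta-miR-425-3p: aTCGGGAAtgtcgtgtccgccc
The 5 seeds were all different, and 0 other listed entries carried any of them. The closest listed sequence was 8 to 10 edits (substitutions, insertions or deletions) away from each entry, so none had a near-identical listed copy. Whether the goat mature sequences equal these bovine ones was not checked. In RefSeq a further gene, MIR191B, overlaps MIR191, and no source used here says how its reads were counted. GC content ran from 50.0% to 63.6%, above the median of 45.5% over all 296 entries, but 41.2% of the entries had at least 50.0%.

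Values are TPM, read tags scaled to a common total per library, written as whole numbers. Over the 296 entries they summed to 239233 to 406336 TPM in goats and 267316 to 420029 TPM in cows. Mean read numbers are known by species only, so counting error per library could not be computed. Differences between species were tested with limma on log2(TPM + 1) wherever 4 or more libraries exceeded 1 TPM, which left 217 entries, and p was adjusted over all of these by Benjamini-Hochberg, with a threshold of 0.05. On this scale 37.3% of tested entries were higher and 24.0% lower in goats, and the median log2 fold change over all tested entries was 0.24.

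miR-423-3p, the -3p arm of the miR-423 hairpin, was higher in goats. It reached 2717, 2229, 2234 and 1391 TPM in goats 17, 44, 79 and 127, and 1487, 1507, 989, 995 and 1048 TPM in cows 1, 2, 3, 20 and 62. Goats 17, 44 and 79 stood above every cow, while goat 127 lay within the cow range. It averaged 2143 ± 551 TPM over the 4 goats and 1205 ± 268 TPM over the 5 cows (SD). Goat minus cow, the difference of mean log2(TPM + 1) (the log2 fold change), was 0.82 (standard error 0.26, 95% interval 0.26 to 1.37), a fold of 1.76, and it passed the test (adjusted p = 0.0126, limma). Without goat 17 the log2 fold change was 0.69 and the call was lost (adjusted p = 0.0540, limma).

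miR-423-5p, the other arm of the same hairpin, did not pass the test. It was at 2107, 1792, 2589 and 890 TPM in goats 17, 44, 79 and 127, and at 1740, 1477, 1257, 1053 and 925 TPM in cows 1, 2, 3, 20 and 62. Goats 17, 44 and 79 were again above all cows, but goat 127 held the lowest value of the 9 animals. It averaged 1844 ± 716 TPM over the 4 goats and 1290 ± 327 TPM over the 5 cows (SD). The log2 fold change was 0.45 with a 95% interval of -0.22 to 1.12 (adjusted p = 0.229, limma), so a goat level up to 2.17-fold that of cows lay within the interval. Goat 127 decided this result, since without it the log2 fold change was 0.77 and passed the test (adjusted p = 0.0185, limma). This goat also had the lowest sum of listed miRNAs, 239233 TPM. As a share of that sum, its miR-423-5p was still the lowest of the goats, at 0.372%, within the cow range of 0.303% to 0.449%. With TPM rescaled to the listed total miR-423-5p was higher in goats (log2 fold change 0.54, adjusted p = 0.0284, limma). With median of ratios it did not pass the test (log2 fold change 0.37, adjusted p = 0.135, limma).

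miR-191, the most abundant of the 5 entries, was at 3105, 2725, 3062 and 2073 TPM in goats 17, 44, 79 and 127, and at 2091, 2719, 1391, 1686 and 1478 TPM in cows 1, 2, 3, 20 and 62. Goats 17, 44 and 79 were above all cows, goat 44 barely so beside cow 2, and goat 127 lay below cows 1 and 2. It averaged 2741 ± 477 TPM over the 4 goats and 1873 ± 545 TPM over the 5 cows (SD). The log2 fold change was 0.58 (standard error 0.26, 95% interval 0.03 to 1.12) and did not pass the test after adjustment (adjusted p = 0.0634, limma). The call depended on the scaling, since miR-191 was higher in goats once TPM were rescaled to the listed total or by median of ratios (limma, adjusted p = 0.00164 and 0.0111). It also passed without goat 127 (log2 fold change 0.70, adjusted p = 0.0272, limma) and without cow 2 (0.72, adjusted p = 0.0229, limma).

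**Figure D1:**
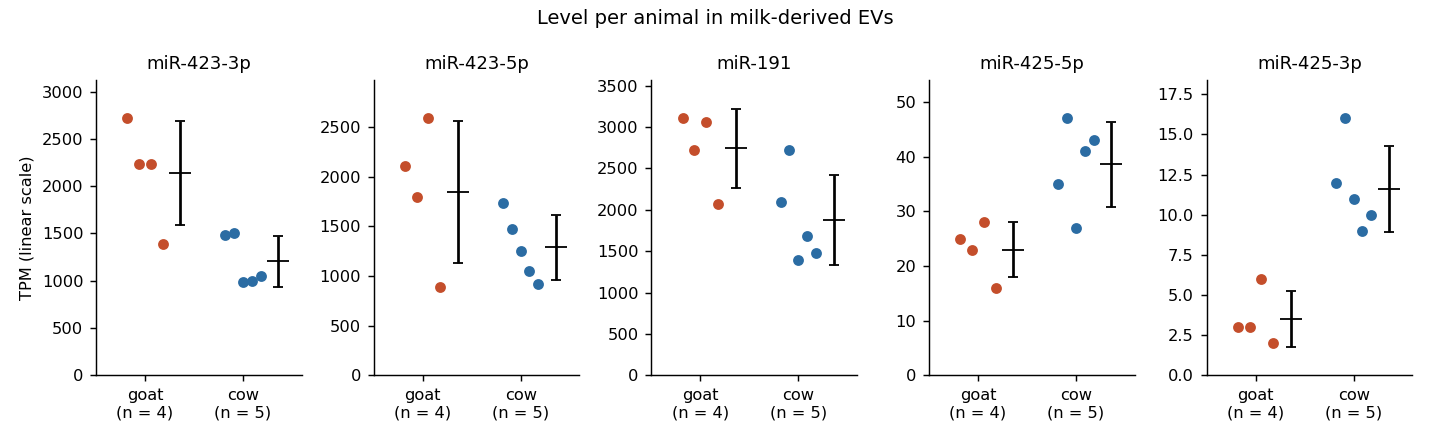
TPM of the 5 entries in each animal, on a linear axis of its own for each panel, with the 4 goats left of the 5 cows and the mean ± SD beside each group. The upper 3 goats lie above all cows for both arms of miR-423 and for miR-191, while goats lie mostly below cows for miR-425-5p and entirely below them for miR-425-3p, where they hold 2 to 6 TPM and cows 9 to 16 TPM.

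miR-425-5p and miR-425-3p, the 2 arms of the hairpin next to that of miR-191, were far scarcer than the other 3 entries and were lower in goats. miR-425-5p was at 25, 23, 28 and 16 TPM in goats 17, 44, 79 and 127, and at 35, 47, 27, 41 and 43 TPM in cows 1, 2, 3, 20 and 62. The groups overlapped only through goat 79 and cow 3. It averaged 23.0 ± 5.10 TPM over the 4 goats and 38.6 ± 7.80 TPM over the 5 cows (SD). The log2 fold change was -0.73 (standard error 0.28, 95% interval -1.32 to -0.13, adjusted p = 0.0343, limma). The call was lost when goat 44, goat 127, cow 2, cow 20 or cow 62 was left out, with log2 fold changes between -0.73 and -0.57 and adjusted p of 0.0644 to 0.116 (limma).

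miR-425-3p was at 3, 3, 6 and 2 TPM in goats 17, 44, 79 and 127, against 12, 16, 11, 9 and 10 TPM in cows 1, 2, 3, 20 and 62. Each goat was below each cow, which held for 1 of the 5 entries, against 51.2% of all tested entries whose goat and cow TPM did not overlap in either direction. It averaged 3.50 ± 1.73 TPM over the 4 goats and 11.6 ± 2.70 TPM over the 5 cows (SD). The log2 fold change was -1.53 (standard error 0.31, 95% interval -2.19 to -0.88, adjusted p = 4.87e-04, limma), the largest in size of the 5 entries, and its call held whichever animal was left out. Values of a few whole TPM are coarse, the log2(TPM + 1) scale understates changes of such scarce entries, and the size fell to -0.68 with a pseudocount of 10.

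In all, goats were higher for 1 of the 5 entries and lower for 2, with 2 not past the threshold, beside the 37.3% and 24.0% of all tested entries. With TPM rescaled to the listed total, 3 were higher and 2 lower, where 44.7% of tested entries were higher and 26.3% lower. With median-of-ratios scaling 2 were higher and 2 lower, where 39.6% were higher and 30.9% lower. When each entry was divided by the geometric mean of the others among miR-423-3p, miR-423-5p, miR-191 and miR-425-5p, the log2 fold change was 0.72 for miR-423-3p, 0.40 for miR-191 and 0.24 for miR-423-5p, against -1.32 for miR-425-5p and -1.77 for miR-425-3p. Only miR-423-5p did not pass the test on this scale (adjusted p = 0.344, limma, 95% interval -0.23 to 0.70). Under these 3 scalings and with the listed total taken without miR-148a, the directions of all 5 were those on deposited TPM, and miR-423-3p and both miR-425 arms passed the test each time.

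**Figure D2:**
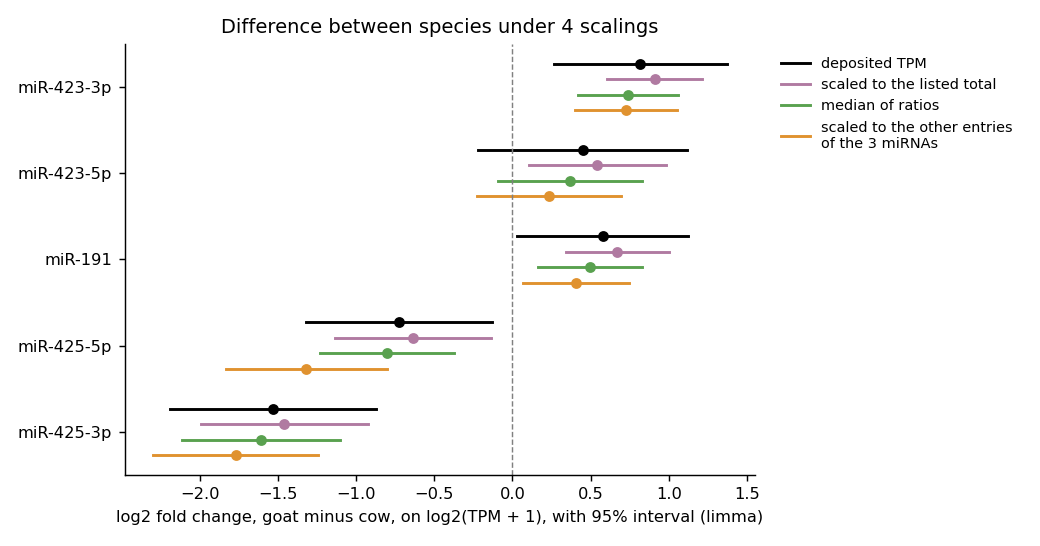
Log2 fold change, goat minus cow, of the 5 entries with its 95% interval from limma, for deposited TPM and 3 other scalings of the same libraries. Points of both arms of miR-423 and of miR-191 lie right of 0 and those of both miR-425 arms left of 0 under each scaling, and miR-423-5p is the entry whose interval crosses 0 on deposited TPM, at -0.22 to 1.12.

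Ratios of TPM within a library do not depend on how libraries are scaled. Of them 3 were tested, as log2 ratios of TPM + 1, where the added 1 leaves some dependence for scarce entries. The ratio of miR-425-5p to miR-191, the neighbouring hairpins, was 0.00805, 0.00844, 0.00914 and 0.00772 in goats 17, 44, 79 and 127, and 0.0167, 0.0173, 0.0194, 0.0243 and 0.0291 in cows 1, 2, 3, 20 and 62. Each goat was below each cow, and the goats differed less among themselves than the cows, with SDs of the log2 ratio of 0.09 and 0.34. The mean log2 ratio was -6.85 in goats (n = 4) and -5.54 in cows (n = 5), a difference of -1.30 (two-sided exact permutation test, p = 0.00794, adjusted over the 3 ratios p = 0.0238). This difference was -1.33 with no pseudocount and -1.13 with a pseudocount of 10. The p of 0.00794 is the smallest that 4 against 5 animals can give. The ratio of miR-425-5p to miR-423-3p, of another locus, was also apart, at 0.0092 to 0.0125 in goats and 0.0235 to 0.0412 in cows. How many pairs of all tested entries were apart in ratio was not counted, and 51.2% of single entries were apart on TPM. How the products of these neighbouring genes came to differ in ratio was not tested.

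The arm ratio of miR-423, -5p over -3p, was 0.775, 0.804, 1.16 and 0.640 in goats 17, 44, 79 and 127, and 1.17, 0.980, 1.27, 1.06 and 0.883 in cows 1, 2, 3, 20 and 62. The arms were thus of like abundance, and goats and cows overlapped through goat 79. The log2 ratio differed by -0.37, short of the threshold in the two-sided exact permutation test (p = 0.0873, adjusted p = 0.111, n = 4 goats and 5 cows). Without goat 79 the difference was -0.53 (adjusted p = 0.0268, exact permutation test over 3 goats and 5 cows). In that run miR-425-5p over miR-191 had the same adjusted p. The adjustment gave so low a value only because both ratios were at the smallest possible p. Passing the threshold there thus did not rest on the miR-423 arms alone. For miR-423-3p over miR-191 the ratio was 0.671 to 0.875 in goats and 0.554 to 0.711 in cows, a log2 difference of 0.24 that did not pass the same exact test (p = 0.111, adjusted p = 0.111). For the miR-425 hairpin the -3p over -5p ratio, given without a test, was 0.120 to 0.214 in goats and 0.220 to 0.407 in cows. The -5p arm was the more abundant in all 9 animals. As log2 ratios of TPM + 1 the species overlapped, with goat 79 at -2.05 and cow 20 at -2.07. Ratios of so few whole TPM are coarse.

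**Figure D3:**
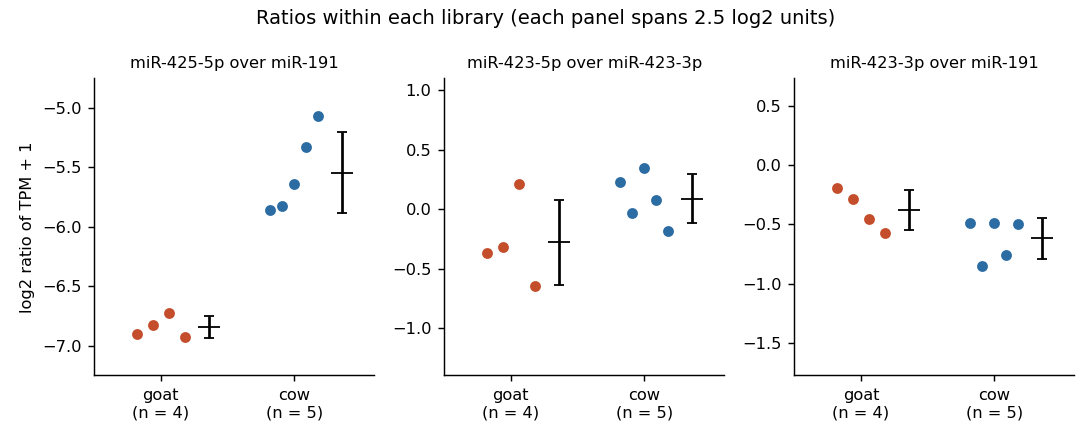
Log2 ratio of TPM + 1 between entries of the same library, with the 4 goats left of the 5 cows and the mean ± SD beside each group, and with axes of equal length in all panels. The groups are apart for miR-425-5p over miR-191, at -6.85 and -5.54 on average, and overlap in the other 2 panels.

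Entries were also ranked by TPM within each library. miR-191 ranked 15 to 20 in goats and 16 to 22 in cows, miR-423-3p ranked 18 to 23 in goats and 26 to 28 in cows, and miR-423-5p ranked 21 to 30 in goats and 24 to 33 in cows. The ranges of the 2 species overlapped for miR-191 and miR-423-5p, while miR-423-3p ranked higher in each goat than in any cow. How many of all tested entries were apart in rank was not counted. On TPM, a different measure, 51.2% of them were apart. miR-425-5p ranked 124 to 125 in goats and 87 to 100 in cows, and miR-425-3p ranked 168 to 189 in goats and 128 to 135 in cows. The summed level of the 5 entries was 4372 to 7957 TPM in goats and 3504 to 5766 TPM in cows. The arms of miR-425 made up 0.352% to 0.429% of that sum in goats and 0.876% to 1.51% in cows.

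Within a species the coefficient of variation (CV) of TPM was 25.7% in goats and 22.2% in cows for miR-423-3p, 38.8% in goats and 25.3% in cows for miR-423-5p, and 17.4% in goats and 29.1% in cows for miR-191. It was 22.2% in goats and 20.2% in cows for miR-425-5p, and 49.5% in goats and 23.3% in cows for miR-425-3p. To set these beside other miRNAs, the SD of log2(TPM + 1) was pooled within species and ranked, from the lowest, among the 76 tested entries with a mean of at least 100 TPM. miR-191 took rank 15 (pooled SD 0.35), miR-423-3p rank 21 (0.36) and miR-423-5p rank 55 (0.52), where the median of the 76 was 0.43. Rescaled to the listed total, the pooled SDs were lower and miR-423-3p came before miR-191, with miR-423-3p at rank 11 (0.18), miR-191 at rank 21 (0.21) and miR-423-5p at rank 47 (0.33), and a median of 0.28. Among all 217 tested entries, miR-425-5p took rank 27 (0.32) and miR-425-3p rank 83 (0.40) on deposited TPM, and rank 87 (0.31) and rank 74 (0.29) on the listed total.

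Taken as a share of the summed TPM of its library, miR-423-3p was nearly constant in cows. Its share was 0.354%, 0.368%, 0.353%, 0.372% and 0.343% in cows 1, 2, 3, 20 and 62, against 0.669%, 0.875%, 0.604% and 0.581% in goats 17, 44, 79 and 127. The CV of this share was 3.35% in cows, the lowest of the 76 entries, before let-7g at 3.78% and miR-148b at 4.61%. In goats it was 19.6% and took rank 36. The place of miR-423-3p in cows depended on the scale. Its SD of log2(TPM + 1) in cows took rank 8 of the 76 with median of ratios and rank 23 on deposited TPM. The share of miR-191 averaged 0.882 ± 0.132% over the 4 goats and 0.555 ± 0.0859% over the 5 cows (SD), with CVs of 15.0% and 15.5%. The share of miR-423-5p averaged 0.573 ± 0.160% over the 4 goats and 0.384 ± 0.0556% over the 5 cows (SD). Goat and cow shares were apart for miR-423-3p, miR-191 and miR-425-3p, 3 of the 5 entries, beside 61.3% of all tested entries.

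Over the 9 animals of both species together, where the difference between species adds to the spread, the SD of log2(TPM + 1) was 0.45 for miR-191 (rank 22 of 76), 0.54 for miR-423-5p (rank 39) and 0.55 for miR-423-3p (rank 40), with a median of 0.54. It was 0.48 for miR-425-5p and 0.89 for miR-425-3p. As a yardstick, the 22 entries of a list of other common reference miRNAs had SDs of 0.20 to 2.30 with a median of 0.52. Of these 22, 8 had a smaller SD than miR-191, 9 a smaller one than miR-425-5p, 13 a smaller one than miR-423-5p, 13 a smaller one than miR-423-3p and 19 a smaller one than miR-425-3p. The list ended with miR-16b (SD 2.30) and miR-16a (SD 1.66). They averaged 538.5 and 542.2 TPM in goats, against 25.6 and 62.8 TPM in cows. A mean of at least 100 TPM in each species left 12 of the 22, without miR-16a and miR-16b, and their median SD was 0.45. Of these 12, 10 had a smaller SD than miR-423-3p, 10 a smaller one than miR-423-5p and 6 a smaller one than miR-191. Of the 21 that passed the filter on low values, goats were higher for 8 and lower for 1, with 12 short of the threshold, beside 37.3% higher and 24.0% lower over all tested entries, and their median log2 fold change was 0.31, against 0.24 over all. On deposited TPM the smallest SD of the 22, and of all 76 abundant entries, was that of miR-92a, of the miR-17-92 cluster, which averaged 2611 ± 385 TPM over the 4 goats and 2581 ± 346 TPM over the 5 cows (SD). Its log2 fold change was 0.01 with a 95% interval of -0.46 to 0.48 (adjusted p = 0.954, limma). miR-30e-5p (SD 0.31) and miR-26a (SD 0.34) came next among the 22, at 0.03 and 0.06 on the log2 scale, goat minus cow (limma, adjusted p = 0.915 and 0.837). Among the others with a mean of at least 100 TPM in each species, let-7g, miR-24-3p, miR-26b, miR-151-3p, miR-186, miR-320a and let-7a-5p did not pass the test, and miR-25 and miR-103 were higher in goats, at 0.68 and 0.94 on the same scale (limma, adjusted p = 0.0496 and 0.00545).

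**Figure D4:**
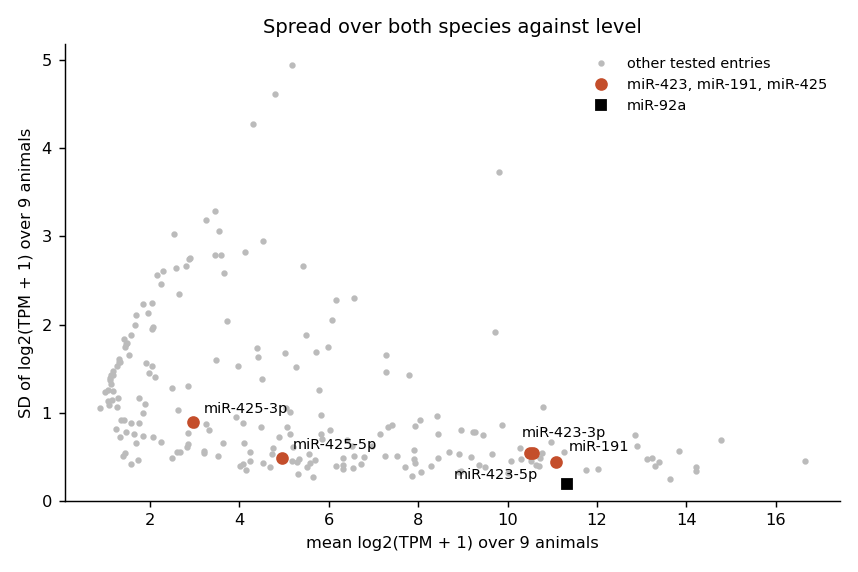
SD of log2(TPM + 1) over the 9 animals against the mean log2(TPM + 1), for the 217 tested entries, with the 5 entries in colour and miR-92a as a square. miR-191 and both arms of miR-423 lie at SDs of 0.45 to 0.55, above miR-92a at 0.20, and miR-425-3p lies at 0.89.

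Dividing every library by a reference shifts the comparison of all other miRNAs by the difference of the reference itself. With miR-423-3p alone as the divisor, 27.6% of tested entries were higher and 47.9% lower in goats (median log2 fold change -0.51). With miR-191 alone 30.9% were higher and 39.6% lower (median -0.27), and with miR-423-5p alone 29.0% were higher and 32.3% lower (median -0.18). With miR-425-5p alone 57.6% were higher and 12.9% lower (median 0.95). The geometric mean of these 4 entries gave 36.4% higher and 32.7% lower, with a median of -0.03, against 0.24 on deposited TPM. Of the 81 entries called higher on deposited TPM, 78 were so with the 4 together and 60 with miR-423-3p alone, and of the 52 called lower, 28 were so with miR-425-5p alone. In these 5 scalings 0 entries were called in the opposite direction. These single divisors were chosen after the data had been seen.

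**Figure D5:**
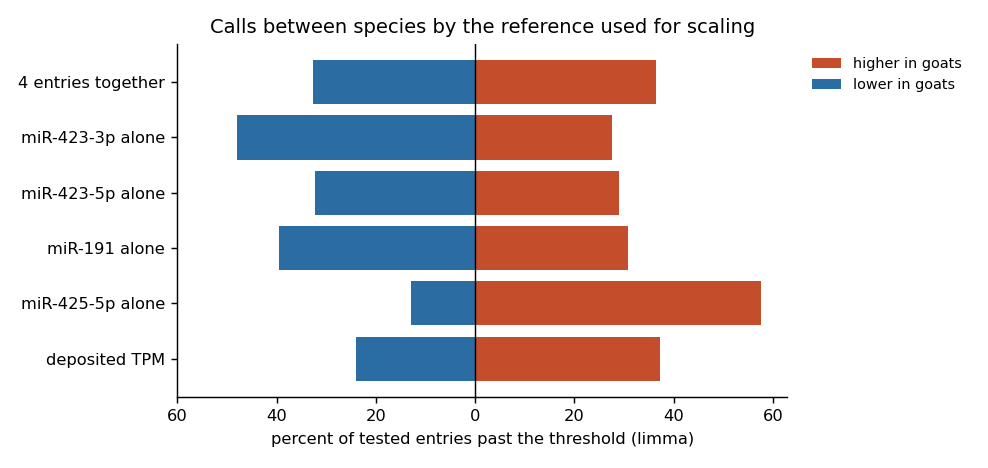
Percent of the 217 tested entries called higher in goats (right of 0) or lower in goats (left of 0) by limma, with libraries divided by 4 entries together (miR-423-3p, miR-423-5p, miR-191 and miR-425-5p), by each of them alone, or left as deposited. The share of entries higher in goats is 27.6% with miR-423-3p and 57.6% with miR-425-5p as the divisor.

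Entries of like pattern were sought by Pearson's r of log2(TPM + 1) over the 9 libraries, among entries with a mean of at least 100 TPM in each species. They are given as a description, since the libraries fall into 2 species and share their scaling. For miR-423-3p the closest were miR-7 (r = 0.97), miR-30d (0.97) and miR-30c (0.95), with r of 0.93, 0.95 and 0.90 after centring on species. For miR-191 they were miR-30d (0.94), miR-423-3p (0.93) and miR-7 (0.91), with r of 0.89, 0.88 and 0.89 after centring, and for miR-423-5p let-7f (0.90), miR-25 (0.90) and miR-30d (0.89), with r of 0.88, 0.90 and 0.89. Both arms of miR-425 had other neighbours, with miR-182 (r = 0.90), miR-2284x (0.89) and miR-320a (0.83) for miR-425-5p and miR-660 (0.96), miR-182 (0.91) and miR-532 (0.90) for miR-425-3p. After centring these fell to 0.73, 0.75 and 0.71 for miR-425-5p and to 0.75, 0.71 and 0.61 for miR-425-3p. Between miR-191 and miR-425-5p r was -0.23 over the 9 libraries and 0.69 after centring on species.

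miRNAs that mark mammary epithelium, the source of milk, were abundant, with summed levels of miR-148a, miR-200a, miR-200b, miR-200c, miR-141 and miR-375 of 89864 to 177597 TPM in goats and 130584 to 204288 TPM in cows. Of these 6, 1 was lower in goats and 5 did not pass the test, where 24.0% of all tested entries were lower. miR-191, miR-423 and miR-425 are also expressed in blood cells, so markers of these were read beside them. Leukocyte markers summed to 305 to 1052 TPM in goats and 12 to 45 TPM in cows. All 4 tested of the 5 listed were higher in goats, where 37.3% of all tested entries were. Of these 4, miR-142-5p, miR-150 and miR-223 held 0 to 6, 1 to 2 and 0 to 3 TPM in cows. They passed the filter on low values through the goats, so being tested favoured a higher goat level. miR-155 held 11 to 33 TPM in cows and 218 to 813 TPM in goats. The red cell markers miR-451 and miR-486 summed to 1 to 37 TPM in goats and 0 to 10 TPM in cows, with miR-451 at 0 in some animals of each species, and neither passed the filter. The platelet markers miR-126-3p and miR-223 summed to 16 to 412 TPM in goats and 0 to 8 TPM in cows, of which miR-223, also counted among the leukocyte markers, was higher in goats and miR-126-3p did not pass the test. The stromal markers miR-143 and miR-145 summed to 217 to 425 TPM in goats and 14 to 25 TPM in cows, and miR-143, the tested one, was higher in goats. The part of these cells in the levels of miR-423, miR-191 and miR-425 was not tested.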

How the data were processed

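The authors trimmed adapters, used the bovine reference for both species, counted tags on miRBase 20 entries and normalized to TPM. The deposited score is this TPM in whole numbers, for 296 entries in 9 libraries. Not given in the sources used here were the aligner, its version, the genome build and the total behind the TPM, so no genome coordinates are printed, and gene neighbours come from RefSeq for ARS-UCD2.0. Depth per library is unknown, so no counting interval was computed.

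Samples were grouped by the species in their titles. The study states no test for species differences. limma 3.58.1 in R 4.3.3, with a trend of variance on mean, was fitted to log2(TPM + 1) wherever 4 or more libraries exceeded 1 TPM (217 entries), with P-values adjusted by Benjamini-Hochberg over all 217. It was also run on simulated data with independent noise for each entry. Those data lacked the scaling that entries of a real library share, so they cannot show how the test behaves under it. Ratios were compared by two-sided exact permutation tests over the 126 ways to assign 9 animals to 4 and 5 (Python 3.11.15, numpy 2.4.6, pandas 2.3.3). Nothing states that animals share a batch.

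Named entries were the 5 of the 3 miRNAs, the 3 of most like pattern for each, other common reference miRNAs of at least 100 TPM in each species, and cell type markers. let-7g and miR-148b as next in CV were named after their values were seen. So were miR-16a and miR-16b as the most variable of the other references, and miR-24 as the lower one. The members and lists were chosen with earlier results of these data known. Alternatives were other pseudocounts, filters and scalings, limma without a trend, and leaving out each animal.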

Additional observations from a re-analysis of the deposited data

How the results depend on the processing

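The read depth of each library and the total behind the TPM are not known, and 4 goats against 5 cows leave wide intervals. Species cannot be told apart from farm, breed, handling and the use of the bovine reference for goats. No paired analysis was possible because the animals of the 2 species share no numbers.

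Other pseudocounts, no filter and limma without a trend changed no call of the 5 entries, and the filter at 10 TPM changed none of the 4 it kept. That filter removed miR-425-3p and left 150 tested entries, against 217. It gave 80 calls over all miRNAs, against 133, of which 47 were higher and 33 lower, against 81 and 52. On scaling, miR-191 gained a call with the listed total (log2 fold change 0.67), the listed total without miR-148a (0.49), median of ratios (0.50) and the other entries of the 3 miRNAs (0.40), and miR-423-5p with the listed total (0.54). With a single divisor, higher calls were 125 with miR-425-5p, and lower calls were 104 with miR-423-3p, 86 with miR-191 and 28 with miR-425-5p.

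With 1 animal left out, the log2 fold change ran from 0.69 to 1.01 for miR-423-3p (call lost in 1 of 9 runs, without goat 17), from 0.25 to 0.77 for miR-423-5p (call gained in 1, without goat 127), from 0.48 to 0.72 for miR-191 (call gained in 2, without goat 127 or cow 2) and from -0.84 to -0.57 for miR-425-5p (call lost in 5). Higher calls over all miRNAs ran from 44 to 81, with 44 without goat 17, 51 without goat 44, 46 without goat 79 and 64 without goat 127, and 186 to 188 entries were tested whenever a goat was left out, against 217. With a cow left out, 212 to 215 entries were tested. The filter required 4 libraries above 1 TPM. An entry above 1 TPM in goats alone therefore could not pass once a goat was left out. How much of the fall in higher calls came from this filter was not tested. The log2 ratio of miR-425-5p to miR-191 ran from -1.38 to -1.18, with adjusted p of 0.0268 to 0.0857, since fewer animals allow no smaller unadjusted p (exact permutation test). That of miR-423-5p to miR-423-3p ran from -0.53 to -0.25.

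The pooled SD within species was lower for all 5 entries with the listed total and with median of ratios, at 0.18 and 0.20 for miR-423-3p, 0.33 and 0.35 for miR-423-5p, 0.21 and 0.21 for miR-191, 0.29 and 0.26 for miR-425-3p, and 0.31 and 0.24 for miR-425-5p, where it was 0.32 on deposited TPM. With 1 animal left out it ran from 0.34 to 0.56 for miR-423-5p, lowest without goat 127, and from 0.28 to 0.43 for miR-425-3p, lowest without goat 79.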
